A study of Mus musculus with 2 samples.

Results

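The epidermal lipid barrier genes are 10 genes whose products make, carry or turn over the lipids of the cornified layer: Elovl4, Cers3, Cyp4f39, Pnpla1, Ugcg, Abca12, Alox12b, Aloxe3, Smpd3 and Acer1. They are 10 of 21911 protein-coding genes of the annotation and were chosen by name, with earlier results of these data known. Their regions were the accessibility peaks within 500 bp of an annotated transcription start or inside the gene body. Peaks of the Control and MOF cKO libraries were merged where they overlapped, which gave 134 member regions of 369634 in all. Of these, 74 of 214119 held a peak of both libraries and are called shared. 14 shared member regions were promoters, 8 lay over an exon and 52 in an intron, and only shared regions have a value in both libraries. Every annotated transcript start counted, so some promoter regions lie inside a gene. They lie 39840 bp from the main start of Cyp4f39, 79337 bp from that of Abca12, and 8219 and 9857 bp from that of Aloxe3.

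By gene, with mm10 coordinates, Elovl4 (chr9:83778692-83806277, minus strand) had 4 shared regions, Cers3 (chr7:66743504-66823691, plus) 18, Cyp4f39 (chr17:32452723-32493320, plus) 7 and Pnpla1 (chr17:28858411-28890309, plus) 6. Ugcg (chr4:59189257-59222833, plus) had 9 and Abca12 (chr1:71242276-71414910, minus) 14. Alox12b (chr11:69156989-69169792, plus) had 2 and its neighbour Aloxe3 (chr11:69125896-69149115, plus) 3. Smpd3 (chr8:106252548-106337988, minus) had 8 and Acer1 (chr17:56953490-56982126, minus) 3.

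The skin barrier to water is built in the uppermost living layers of the epidermis. Granular keratinocytes make ceramides, some of them with very long, omega-hydroxylated acyl chains. Glucosylceramides and sphingomyelins made from ceramides are packed into lamellar bodies and released to the cornified layer. There they are trimmed to ceramides, and part of them is bound to the corneocyte surface after oxidation by epidermal lipoxygenases. Loss of several of these genes in humans or mice is known to cause ichthyosis or a lethal barrier defect.

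The study profiled back skin of E16.5 mouse embryos by droplet single-cell ATAC-seq, in which a transposase cuts open chromatin and each cut is a counted insertion site. The 2 libraries were 1 Control and 1 MOF cKO, from 1 pair of embryonic samples, where MOF cKO means MOFfl/fl with K14Cre, so that Mof (Kat8), the acetyltransferase of histone H4 lysine 16, is deleted in cells that use the keratin 14 promoter. The labels call the other library Control and give no alleles for it. In both, cells sorted as K14-H2BGFP-positive (epithelial) and K14-H2BGFP-negative were mixed again to enrich epithelial cells, in a ratio on which the sources differ. The sort and the mixing set the share of each cell class in a library.

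With 1 library per genotype there is no replicate check, so no test was made between genotypes or between classes. Intervals are 95% intervals of counting error only, on fragments taken as sites divided by 2. Of 2541 Control and 4348 MOF cKO barcodes, 2481 and 4348 had at least 1000 sites and were kept, with medians of 64436 and 66240 sites per cell. 13 kept barcodes occurred in both libraries. Cells were clustered without the regions within 100 kb of a member gene and were named by fixed markers. This gave 1320 Control and 2344 MOF cKO epithelial-like cells, 661 and 1248 fibroblast-like cells and 46 and 279 immune-like cells. Among the epithelial-like cells, 114 and 689 were suprabasal-like, 401 and 0 were hair follicle-like and 805 and 1655 had neither name. The last are called other epithelial-like, since no sub-cluster held 3 basal markers.

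The genotypes hardly mixed in the clustering. Before sub-clustering, clusters 2, 6 and 11 held 1394 Control and 34 MOF cKO epithelial-like cells, and clusters 0, 3 and 4 held 0 Control and 2548 MOF cKO cells, so every epithelial comparison of genotypes is also one of different clusters. Sample, library, cluster and genotype cannot be told apart. The fibroblast markers summed to 190 CPM in Control and 194 CPM in MOF cKO epithelial-like cells (11 of 11 above 0), against 782 and 702 CPM in fibroblast-like cells. The 24 suprabasal markers summed to 683 CPM in suprabasal-like and 537 CPM in other epithelial-like Control cells, and to 590 and 438 CPM in MOF cKO. 18 of 22 markers with enough sites were higher in suprabasal-like cells in Control and 20 of 22 in MOF cKO, while Flg2 and 1 more of the 24 had no site in either library. The same markers named these sub-clusters, so this is no separate check. The 14 basal markers differed little, at 3423 CPM in suprabasal-like and 3525 CPM in other epithelial-like Control cells. In MOF cKO they summed to 3308 and 3349 CPM. 4 of 14 were higher in suprabasal-like cells in Control and 5 of 14 in MOF cKO. The 17 hair follicle markers summed to 1368 CPM in hair follicle-like and 995 CPM in other epithelial-like Control cells. In other epithelial-like MOF cKO cells they summed to 1008 CPM. Sub-clusters were named against the others of their own library. Whether hair follicle cells lie unseparated among the MOF cKO ones was not tested. The promoter of Kat8 itself had 51.6 CPM in Control and 38.1 CPM in MOF cKO epithelial-like cells. This log2 ratio of −0.44 was near the median of −0.43 over the promoters of all genes. Promoter accessibility does not check the deletion of exons.

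Levels are in CPM, with the sites of the same class in shared regions as the total, and a level per kb divides by the summed length of a gene's regions. The values of all 10 genes by class are drawn as levels per kb.

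**Figure D1:**
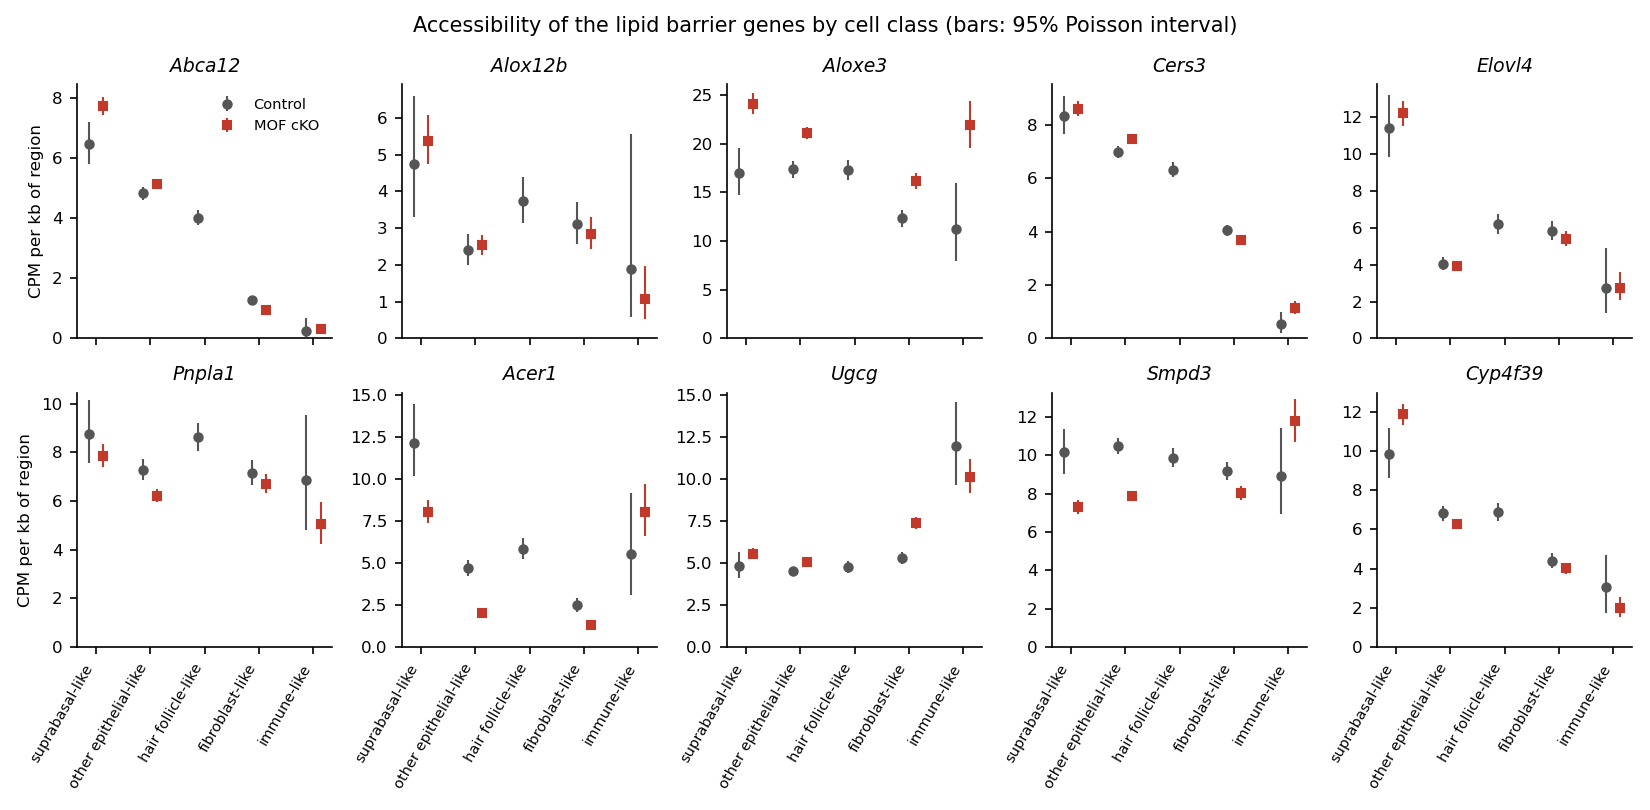
Levels of the 10 lipid barrier genes (CPM per kb of promoter and body regions) in each cell class of the Control and MOF cKO libraries, 1 library each. Bars are 95% Poisson intervals, and MOF cKO has no hair follicle-like cells. Smpd3 ran from 7.30 to 11.8 CPM per kb over the classes, while Abca12 had 4.83 CPM per kb in Control other epithelial-like and 1.28 in Control fibroblast-like cells.

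In Control skin, Cers3, Acer1 and Abca12 promoters were open in epithelial-like cells and almost closed in fibroblast-like cells, whereas Elovl4 and Ugcg promoters were more open in fibroblast-like cells. Cers3, the ceramide synthase of very long acyl chains, had a promoter level of 27.9 CPM in epithelial-like and 0.579 CPM in fibroblast-like cells (log2 difference 5.59, 95% interval 4.72 to 6.49). Acer1, an alkaline ceramidase, had 7.74 and 0.377 CPM at its promoter (4.36, 3.27 to 5.49). Abca12, the lipid transporter of lamellar bodies, had 9.86 and 0.604 CPM over its 2 promoter regions (4.03, 3.21 to 4.99). These 3 promoters had few CpG dinucleotides, with 4 to 7 in the central 300 bases, where the median promoter region of all genes held 17. Few CpG were not particular to them, since the 3 Aloxe3 promoter regions held 6, 9 and 1 and differed by 0.21, 0.65 and 3.99 between the same classes.

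Pnpla1, which joins linoleate to omega-hydroxyceramide, lay between, with a promoter level of 6.01 CPM in epithelial-like and 1.86 CPM in fibroblast-like Control cells (log2 1.69). Aloxe3, Cyp4f39, Smpd3 and Alox12b differed by 0.49, 0.22, 0.12 and −0.23 on the log2 scale at their promoters, where the median of all genes was −0.16. Median-of-ratios size factors moved all ratios of this contrast by −0.38, which put Aloxe3 at 0.11, Cyp4f39 at −0.16 and Smpd3 at −0.26. Ugcg, which makes glucosylceramide, had 13.9 CPM in epithelial-like and 24.4 CPM in fibroblast-like cells (−0.81, −0.97 to −0.64). Elovl4, the elongase of very long chain fatty acids, had 11.1 and 22.8 CPM (−1.04, −1.21 to −0.85). The Ugcg and Elovl4 promoters were also the most CpG-rich of the 10 genes, with 54 and 38 CpG in 300 bases.

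The promoters of Cers3 and Elovl4 are shown because they mark the ends of this order. They are the 250 bases before the RefSeq start on the strand of the gene, 5′ to 3′, in build GRCm38.p6, at chr7:66743254-66743503 (plus strand) and chr9:83806306-83806555 (minus strand). They hold 6 and 25 CpG, and none of the motifs searched below, so no letter is in capitals.
Cers3: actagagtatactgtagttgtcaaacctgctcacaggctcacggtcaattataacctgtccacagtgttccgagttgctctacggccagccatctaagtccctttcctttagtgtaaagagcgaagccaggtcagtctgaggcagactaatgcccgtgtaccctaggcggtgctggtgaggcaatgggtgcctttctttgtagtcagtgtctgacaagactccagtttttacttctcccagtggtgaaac
Elovl4: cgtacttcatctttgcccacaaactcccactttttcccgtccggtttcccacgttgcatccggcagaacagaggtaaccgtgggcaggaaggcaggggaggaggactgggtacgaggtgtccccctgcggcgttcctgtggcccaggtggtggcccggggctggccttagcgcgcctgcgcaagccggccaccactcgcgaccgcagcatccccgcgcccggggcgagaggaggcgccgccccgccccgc

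The gene bodies gave another order. Elovl4, whose promoter was more open in fibroblast-like cells, had a body level of 11.7 CPM in epithelial-like and 1.89 CPM in fibroblast-like Control cells (2.63, 2.14 to 3.12), so its intronic regions and its promoter differed in opposite directions. Cyp4f39, the mouse counterpart of the fatty acid omega-hydroxylase CYP4F22, had 18.6 and 5.41 CPM over its body (1.78, 1.49 to 2.08). Cers3 body regions, at 87.1 and 67.6 CPM, differed far less than its promoter (0.37, 0.28 to 0.45). That was near the body median of all genes, 0.36, and with size factors it was −0.016. Counted by region, 45 of 74 member regions were 2-fold or more higher in epithelial-like than in fibroblast-like Control cells, or 60.8%, where 39.8% of all shared regions were. 10 of 74 were as much lower, or 13.5%, against 24.5% of all.

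Within the epithelium, Elovl4, Acer1 and Alox12b stood out in suprabasal-like cells, and Ugcg, Smpd3 and Aloxe3 did not. Elovl4 had 48.1 CPM over promoter and body in suprabasal-like and 17.1 CPM in other epithelial-like Control cells (log2 1.495, 1.24 to 1.74), and 51.4 and 16.49 CPM in MOF cKO (1.64, 1.52 to 1.76). Acer1 had 34.4 and 13.3 CPM in Control (1.37, 1.08 to 1.66) and 22.8 and 5.68 CPM in MOF cKO (2.002, 1.81 to 2.19). Alox12b, the 12R-lipoxygenase of the epidermis, had 9.14 and 4.62 CPM in Control (0.99, 0.40 to 1.53) and 10.4 and 4.87 CPM in MOF cKO (1.09, 0.85 to 1.33). Thus both libraries gave these genes the same direction. The suprabasal-like cells of MOF cKO came from sub-clusters 1 and 7, which held 3 and 7 of 24 suprabasal markers past 1.5-fold, and those of Control from sub-cluster 5, with 8.

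Cyp4f39 followed with 62.6 and 43.4 CPM in Control (0.53, 0.32 to 0.73) and 75.5 and 40.1 CPM in MOF cKO (0.92, 0.83 to 1.00). Abca12 differed by 0.42 in Control and 0.59 in MOF cKO, Pnpla1 by 0.27 and 0.34, and Cers3 by 0.26 and 0.20. The intervals of Ugcg (0.10, −0.16 to 0.34), Smpd3, a neutral sphingomyelinase (−0.05, −0.23 to 0.13), and Aloxe3, the epidermal hydroperoxide isomerase (−0.03, −0.25 to 0.18), all included 0 in Control. In MOF cKO they were 0.13 (0.03 to 0.23), −0.11 (−0.20 to −0.02) and 0.19 (0.12 to 0.27), so none included 0. The median of the 10 genes was 0.35 in Control, beside −0.01 for all genes, and 0.47 in MOF cKO, beside 0.02. Summed over the 10 genes, the level was 599.7 CPM in suprabasal-like and 472 CPM in other epithelial-like Control cells (0.35, 0.28 to 0.41), and this difference was 0.17 when the regions near the members also entered the clustering.

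In Control, the members were higher in suprabasal-like cells over their bodies more than at their promoters. The median of the 9 genes with body regions was 0.49, beside −0.028 for all genes, and that of the 10 promoters −0.0025, beside −0.018. In MOF cKO the medians were 0.56, beside 0.039, and 0.31, beside 0.0049, and all 10 promoters were above the median of all genes. Elovl4 body regions had 41.9 CPM in suprabasal-like and 8.90 CPM in other epithelial-like Control cells (2.24, 1.94 to 2.53), while its promoter had 6.14 and 8.15 CPM (−0.41, −1.05 to 0.23). The single body region of Alox12b, 3.72 kb from its start, had 5.75 and 0.892 CPM (2.69, 1.77 to 3.54), and its promoter 3.40 and 3.73 CPM. Cyp4f39 likewise had 35.8 and 17.3 CPM over its body (1.05) and 26.8 and 26.1 CPM over its 2 promoter regions (0.04). These differed by 0.12 at −56 bp and by −0.0075 at 39840 bp. Pnpla1 was the reverse, with 10.3 and 4.08 CPM at its promoter (1.34, 0.81 to 1.89) and 37.6 and 35.8 CPM over its body (0.07, −0.19 to 0.33). Acer1 was higher in suprabasal-like cells in both, by 1.19 at the promoter and 1.57 over the body. In MOF cKO the Elovl4 promoter differed by 0.59 (0.38 to 0.79) and those of Abca12 by 1.10 (0.83 to 1.37).

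**Figure D2:**
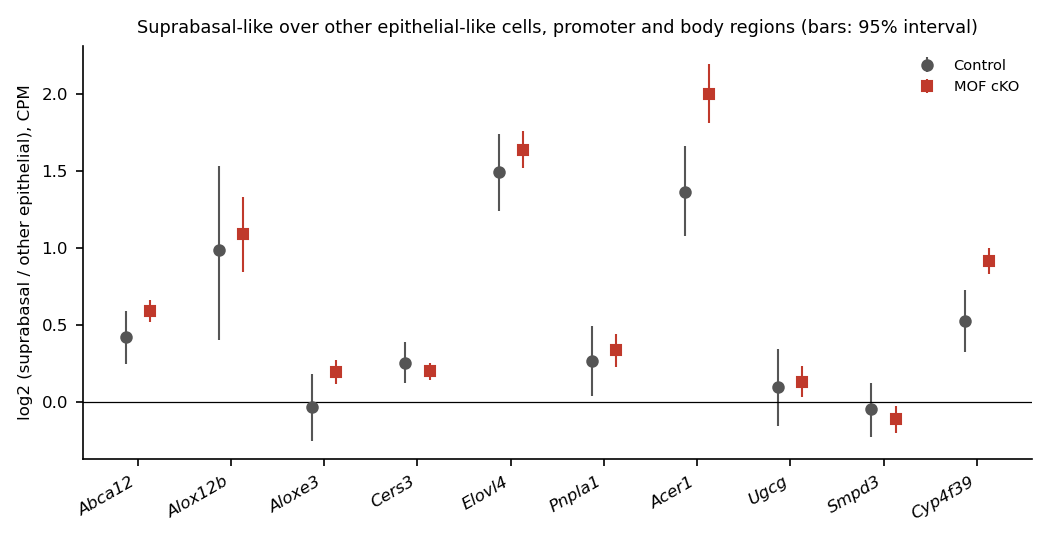
Log2 ratio of the level in suprabasal-like over other epithelial-like cells for each of the 10 genes (promoter and body regions), Control as grey circles and MOF cKO as red squares, bars giving the 95% interval of counting error. Elovl4, Acer1 and Alox12b lie at 0.99 or above in both libraries, and Ugcg and Smpd3 near 0.

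By region, 16 of 72 member regions with at least 20 sites were 2-fold or more higher in suprabasal-like cells of Control, or 22.2%, against 8.19% of all shared regions, and they belonged to 8 of the 10 genes. 4 of 72 were lower, against 19.4% of all. In MOF cKO 16 of 73 were higher, where 7.22% of all regions were, and 9 lower, where 12.3% were. By gene, 2 of the 10 passed 2-fold in Control (Elovl4, Acer1), where 0.952% of all genes did, and 3 in MOF cKO (Elovl4, Acer1, Alox12b), where 0.942% did. 0 of the 10 were 2-fold lower in either, where 2.63% and 1.47% of all genes were. Hair follicle-like Control cells, compared with other epithelial-like cells, were higher at the Elovl4 promoter (16.3 and 8.15 CPM, log2 1.00) and lower at the Cers3 promoter (20.7 and 32.1 CPM, −0.63). MOF cKO had no hair follicle-like cell to compare.

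Between genotypes, the 10 genes together differed little in epithelial-like cells, and gene bodies and promoters went apart. Over promoter and body regions the genes summed to 481 CPM in Control and 509 CPM in MOF cKO (log2 0.08, 0.06 to 0.10). The median of all protein-coding genes moved by −0.29 with this scaling, by −0.43 for promoters and by 0.04 for body regions outside promoters, and values are read against these medians. The member median was 0.16 over promoter and body regions, and 8 of 10 genes lay above the all-gene median. No member passed 2-fold, where 3.82% of all genes were 2-fold higher and 1.68% lower.

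At promoters the members summed to 228 CPM in Control and 196 CPM in MOF cKO (−0.22, −0.25 to −0.18). Their median was −0.35, close to the −0.43 of all genes, with 5 of 10 above it. Acer1 was the 1 member promoter 2-fold or more lower by gene, where 2.96% of genes were lower and 2.44% higher. It had 7.74 CPM in Control and 2.82 CPM in MOF cKO (−1.46, −1.69 to −1.23), which put it at the 0.65 percentile of all promoters. The direction held in each sub-class, with 17.0 and 6.44 CPM in suprabasal-like cells (−1.40, −1.82 to −0.96) and 7.47 and 1.44 CPM in other epithelial-like cells (−2.37, −2.74 to −2.02). In fibroblast-like cells both libraries were near 0 (0.377 and 0.403 CPM).

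The Acer1 promoter is shown for that reason, as the 250 bases before its start on the minus strand, chr17:56982127-56982376. It holds 4 CpG and no searched motif.
Acer1: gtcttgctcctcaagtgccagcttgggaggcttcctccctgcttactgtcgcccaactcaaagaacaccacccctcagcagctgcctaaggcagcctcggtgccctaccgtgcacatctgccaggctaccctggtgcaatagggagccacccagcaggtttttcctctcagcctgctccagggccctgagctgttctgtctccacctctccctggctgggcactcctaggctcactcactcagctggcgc

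Abca12 was the next lowest, at 9.86 and 5.15 CPM over its 2 promoter regions (−0.94), but this ratio does not compare the same DNA. At the main start, the Control peak covered 138 to 867 bp after the start and the MOF cKO peak 272 bp before to 175 bp after it, and only 38 bases, or 3.33% of the merged region, were in both. The Control peak had 7.08 CPM and the MOF cKO peak 2.37 CPM in epithelial-like cells. The other 73 shared member regions had at least 56.9% of their length in both peaks, with a median of 90.5%. Requiring 50% of each peak to overlap removes this region and gives 0.0077 for the remaining Abca12 promoter region. That region lies 79337 bp inside the gene, so this setting gives no value at the main start. The 250 bases before the main start (minus strand, chr1:71414911-71415160) lie within the MOF cKO peak only and hold no searched motif.
Abca12: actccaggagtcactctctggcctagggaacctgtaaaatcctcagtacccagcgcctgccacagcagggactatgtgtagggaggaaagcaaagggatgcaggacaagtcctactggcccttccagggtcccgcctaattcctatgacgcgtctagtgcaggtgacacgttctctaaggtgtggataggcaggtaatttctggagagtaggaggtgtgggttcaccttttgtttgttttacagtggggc

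Apart from those of Aloxe3, the other promoters were closer to the median of all genes. Smpd3 had the highest promoter level of the members in Control, at 66.3 CPM, and 45.7 CPM in MOF cKO (−0.54, −0.60 to −0.47), where Aloxe3 was higher. Alox12b had 4.60 and 3.17 CPM (−0.54, −0.79 to −0.28), and Cyp4f39 26.4 and 19.0 CPM (−0.47, −0.57 to −0.37). The 2 Cyp4f39 regions had log2 ratios of −0.36 at −56 bp and −0.53 at 39840 bp. Per kb of Control peak, the region at 39840 bp had the higher level, at 19.3 CPM beside 9.88 CPM. Elovl4, Cers3 and Pnpla1 differed by −0.24, −0.20 and −0.17, and Ugcg by −0.09, which became 0.066 with median-of-ratios size factors. The Elovl4 value was not seen in either sub-class, as its promoter had 6.14 and 12.4 CPM in suprabasal-like cells (1.015, 0.38 to 1.65) and 8.15 and 8.27 CPM in other epithelial-like cells (0.021, −0.20 to 0.25). The Control epithelial-like level also holds the 401 hair follicle-like cells, with 16.3 CPM at this promoter, a name given to no MOF cKO sub-cluster. Aloxe3, whose 3 shared regions are all promoters, had 53.7 and 67.9 CPM (0.34, 0.27 to 0.40), but its peaks covered 2259 bases in Control and 3068 in MOF cKO. Per kb of these peaks the levels were 23.8 and 22.1 CPM (−0.10), so the direction turned, and with cells counted by the presence of a site it was 0.034. Its first promoter region had 23.9 and 39.0 CPM (0.70) from peaks of 735 and 1291 bases, or 32.6 and 30.2 CPM per kb of peak (−0.11), the second had 27.4 and 27.2 CPM and the third 2.40 and 1.80 CPM.

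Over body regions outside promoters, 7 of the 9 genes that have them were above the all-gene median of 0.04, and the member median was 0.30. Alox12b had 1.32 CPM in Control and 3.21 CPM in MOF cKO (1.28, 0.90 to 1.68). This was the 1 gene past 2-fold, where 11.3% of all genes were higher and 3.53% lower. Cyp4f39 had 18.6 and 30.8 CPM (0.73, 0.62 to 0.83), Elovl4 11.7 and 16.7 CPM (0.51, 0.38 to 0.65) and Abca12 52.4 and 73.3 CPM (0.48, 0.42 to 0.55). Pnpla1 (−0.25) and Acer1 (−0.14) were below the all-gene median. Each of the 9 genes but Pnpla1 had a higher log2 ratio in its body than at its promoters, the same order as the medians of all genes.

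**Figure D3:**
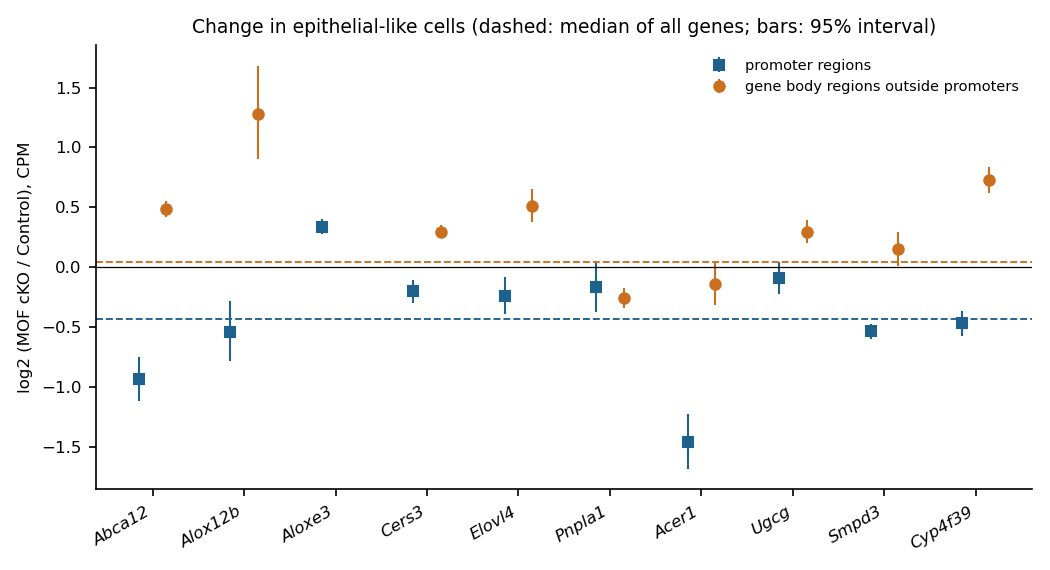
Log2 ratio of MOF cKO over Control in epithelial-like cells for promoter regions (blue squares) and body regions outside promoters (orange circles) of each gene, with 95% intervals of counting error and dashed lines at the median of all genes. Acer1 has the lowest promoter value (−1.46) and Alox12b the highest body value (1.28), and Aloxe3 has no body region.

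The share of suprabasal-like cells differed along with these values. It was 8.64% of epithelial-like cells in Control and 29.4% in MOF cKO, but it rests on the naming. Of the 689 MOF cKO cells, 452 were of sub-cluster 1, which held 3 of 24 suprabasal markers, the least number for a name. Sub-clusters were named against the others of their own library, so the shares are not on a common scale. Within suprabasal-like cells Alox12b body accessibility was 5.75 and 6.88 CPM (0.26, −0.38 to 0.97), and Elovl4 body accessibility was 41.9 and 39.0 CPM. In other epithelial-like cells they were 0.892 and 1.82 CPM and 8.90 and 8.22 CPM. Abca12 bodies were higher in MOF cKO in both sub-classes, at 76.4 and 95.5 CPM and at 54.4 and 64.9 CPM, as were Cyp4f39 bodies, at 35.8 and 54.7 CPM and at 17.3 and 21.7 CPM. The part of the cell shares in the epithelial-like values was not tested further.

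Single regions moved much more than whole genes, in both directions. 14 of 74 member regions, in 7 genes, were 2-fold or more higher in MOF cKO epithelial-like cells, or 18.9%, where 17.4% of all shared regions were. 13, in 5 genes, were as much lower, or 17.6%, where 13.9% of all were, and 12 remain without the Abca12 promoter region described above. These shares are near the background. With each cell thinned to 5000 sites, 14 of the 65 regions with enough sites were higher and 5 lower, where 24.9% and 10.1% of all were. 0 of 14 promoter regions were higher and 2 lower, where 5.4% and 6.32% of all promoter regions were. Of 60 body regions, 14 were higher and 11 lower, where 17.6% and 15.3% were.

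The region with the highest ratio was in an intron of Cyp4f39, 22.6 kb from the start (chr17:32474859-32475735). It had 1.22 CPM in Control and 12.7 CPM in MOF cKO epithelial-like cells (log2 3.37, 3.01 to 3.76), and it was higher in MOF cKO in suprabasal-like cells (6.27 and 24.8 CPM) and in other epithelial-like cells (0.787 and 8.08 CPM). A second Cyp4f39 intron region at 9.59 kb had 0.660 and 2.81 CPM (2.09). It had 2.35 and 7.34 CPM in suprabasal-like cells and 0.630 and 1.09 CPM in other epithelial-like cells. Suprabasal-like cells gave 18 of its 69 epithelial-like sites in Control, and 367 of its 511 in MOF cKO.

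Among regions with at least 200 sites, Cers3 held 3 of the 8 with the highest and 3 of the 8 with the lowest ratio of MOF cKO over Control. The intron region at 3.67 kb (chr7:66746688-66747651) had 0.756 and 5.63 CPM (2.90, 2.41 to 3.38), with 1.04 and 14.1 CPM in suprabasal-like cells. The intron region at 12.3 kb (chr7:66755333-66756250) had 3.33 and 18.3 CPM (2.46, 2.23 to 2.69). Its Control level was already 14.5 CPM in suprabasal-like cells against 2.47 CPM in other epithelial-like cells, and in MOF cKO the levels were 22.9 and 16.6 CPM. The region at 13.8 kb had 4.47 and 15.4 CPM (1.79) with 4.70 and 4.22 CPM in suprabasal-like and other epithelial-like Control cells (0.16, −0.64 to 0.89) and 13.9 and 16.0 CPM in MOF cKO (−0.19, −0.38 to −0.02). The regions at 16.8, 35.9 and 37.2 kb were lower, at 3.79 and 1.61 CPM (−1.23), 2.28 and 0.913 CPM (−1.32) and 11.8 and 5.58 CPM (−1.08). Both directions were mixed along the gene, since other regions at 6640 and 18002 bp had −1.48 and 0.59. The region at 37.2 kb was highest in hair follicle-like Control cells, at 15.8 CPM, a name given to no MOF cKO sub-cluster. In other epithelial-like cells it had 9.58 and 6.59 CPM (−0.54).

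Abca12 also had regions in both groups. Its intron region at 18.5 kb had 4.19 and 19.0 CPM (2.18, 1.98 to 2.39), with 9.80 and 25.7 CPM in suprabasal-like and 3.603 and 16.49 CPM in other epithelial-like cells, and only 0.226 and 0.484 CPM in fibroblast-like cells. The region at 75.6 kb had 1.03 and 4.34 CPM (2.07). The region at 118 kb (chr1:71296512-71297530) had the lowest ratio of all member regions, at 3.59 and 0.880 CPM (−2.03, −2.43 to −1.65). The same direction was seen in other epithelial-like cells, at 3.67 and 1.07 CPM.

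Ugcg also had a higher and a lower region in its introns. The region at 14.2 kb had 2.68 and 8.23 CPM (1.62, 1.36 to 1.89) and the region at 16.9 kb 1.51 and 0.572 CPM (−1.40, −1.94 to −0.88). The first was also higher in MOF cKO fibroblast-like cells, at 0.755 and 2.65 CPM (1.81, 1.00 to 2.71). For Pnpla1, an exonic region at 32.0 kb had 1.54 and 0.715 CPM (−1.11), though in other epithelial-like cells it had 1.15 and 0.888 CPM with an interval that included 0.

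**Figure D4:**
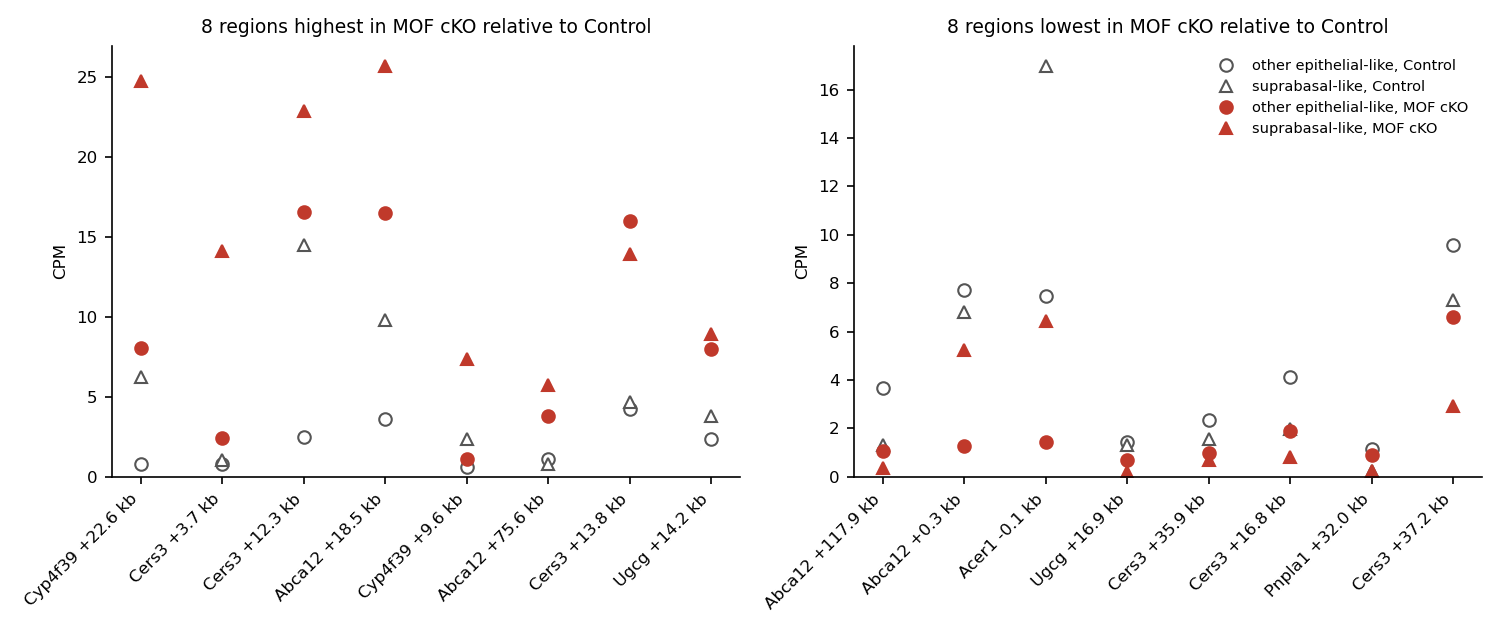
Levels (CPM) of the 8 member regions with the highest and the 8 with the lowest ratio of MOF cKO over Control, each in suprabasal-like (triangles) and other epithelial-like cells (circles), Control open and MOF cKO filled. The labels give the gene and the distance of the region from its start in kb, and the Abca12 region at 0.3 kb joins peaks that hardly overlap.

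The centres of the 3 regions with the highest ratios and of the Abca12 region with the lowest are shown for the motifs they hold. Each is 300 bases on the strand of the gene, 5′ to 3′, from the GRCm38.p6 reference, and capitals mark exact matches to AP-1 (TGACTCA, or TGAGTCA on the other strand) and KLF (GGGTGTG, or CACACCC on the other strand). Cyp4f39 is at chr17:32475147-32475446, the Cers3 regions are at chr7:66747020-66747319 and chr7:66755642-66755941 and Abca12 is at chr1:71296871-71297170.
Cyp4f39, 22.6 kb: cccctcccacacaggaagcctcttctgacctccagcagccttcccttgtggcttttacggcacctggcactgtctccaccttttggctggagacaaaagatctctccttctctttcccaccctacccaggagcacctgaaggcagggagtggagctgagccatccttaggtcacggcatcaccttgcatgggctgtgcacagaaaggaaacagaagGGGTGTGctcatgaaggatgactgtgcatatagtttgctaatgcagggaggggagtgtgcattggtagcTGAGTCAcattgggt
Cers3, 3.67 kb: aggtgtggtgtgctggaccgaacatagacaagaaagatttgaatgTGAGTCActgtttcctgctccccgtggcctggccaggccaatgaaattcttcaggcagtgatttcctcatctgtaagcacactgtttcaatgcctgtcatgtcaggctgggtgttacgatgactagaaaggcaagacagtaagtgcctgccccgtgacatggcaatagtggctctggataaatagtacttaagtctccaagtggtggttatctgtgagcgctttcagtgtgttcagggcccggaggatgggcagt
Cers3, 12.3 kb: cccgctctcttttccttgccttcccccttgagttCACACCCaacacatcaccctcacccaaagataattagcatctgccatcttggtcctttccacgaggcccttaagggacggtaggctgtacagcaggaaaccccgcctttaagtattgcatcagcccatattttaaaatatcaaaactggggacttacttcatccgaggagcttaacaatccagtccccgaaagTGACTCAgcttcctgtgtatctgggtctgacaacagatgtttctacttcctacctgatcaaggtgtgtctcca
Abca12, 118 kb: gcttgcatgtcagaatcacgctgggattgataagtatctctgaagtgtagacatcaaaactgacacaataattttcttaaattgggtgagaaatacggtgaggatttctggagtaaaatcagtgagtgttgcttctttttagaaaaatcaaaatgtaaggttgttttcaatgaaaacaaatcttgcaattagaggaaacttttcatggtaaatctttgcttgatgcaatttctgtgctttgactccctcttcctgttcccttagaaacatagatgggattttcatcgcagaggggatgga

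Each of the 3 higher regions held an AP-1 match and the lower region held none of the motifs searched. AP-1 factors, dimers of Jun and Fos proteins, bind this sequence in many cell types. The central 300 bases of 17 of 74 member regions had a match, or 23.0%, beside 16.0% of all shared regions, and 0 of 14 promoters had one, beside 7.47% of all promoter regions. Split by the genotype ratio, 11 of the 14 higher regions, 0 of the 13 lower regions and 6 of the 47 between had a match. The same split over all shared regions gave 48.4%, 3.32% and 10.4%, which is the same order.

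Read the other way, 11 of the 17 member regions with an AP-1 match were 2-fold or more higher in MOF cKO, where 52.7% of all regions with a match were. 3 of the 57 without a match were, where 10.7% of all such regions were. 0 of the 17 and 13 of the 57 were 2-fold or more lower, where 2.89% and 16% were. The median log2 ratio was 1.28 with and −0.24 without a match among the members, and 1.09 and −0.28 among all regions. In suprabasal-like cells the 17 had a median of 1.12, in other epithelial-like cells 1.62, and in fibroblast-like cells the 16 with enough sites had 0.69, where all such regions had 1.13, 1.12 and 0.41. In fibroblast-like cells 5 of these 16 were higher and 1 lower, where 23.7% and 3.79% of all were. A KLF match was found in 13 of 74 member regions, or 17.6%, beside 9.38% of all. The p63 letters (CATG, 6 bases, CATG), GRHL (AACCGGTT) and C/EBP (TTGCGCAA) were in 0 of 74, beside 1.58%, 0.22% and 0.107% of all. A match to letters is a description and not a bound site.

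**Figure D5:**
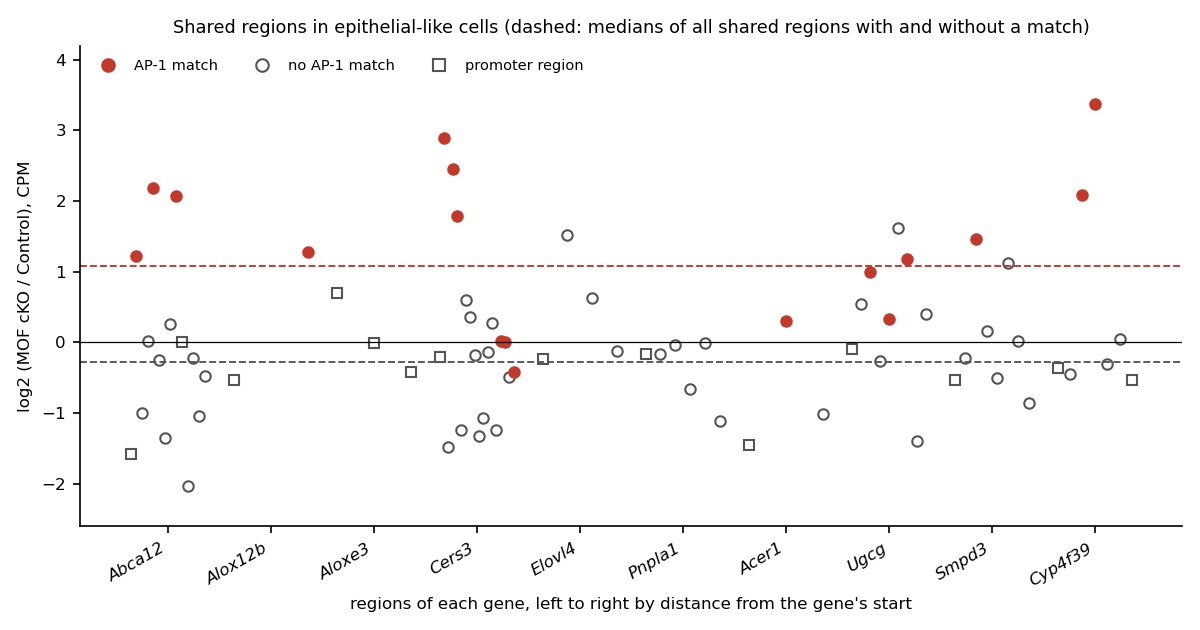
Log2 ratio of MOF cKO over Control in epithelial-like cells for each of the 74 shared member regions, grouped by gene and marked by the presence of an AP-1 match in the central 300 bases. Of the regions with a match, 16 of 17 lie above 0, and of those without, 16 of 57.

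Within the sub-classes the counts were 12 higher and 12 lower of 69 regions in suprabasal-like cells, where 26.6% and 12.6% of all regions were, and 14 and 12 of 74 in other epithelial-like cells, where 18.9% and 11.9% were. Here too the shares of all regions were not matched for counts. In fibroblast-like cells, where K14Cre is not expected to act, 8 of 67 were higher and 6 lower, where 10.7% and 7.28% were. There the member sum was 342 CPM in both libraries (log2 −0.0029, −0.05 to 0.04). Single genes differed in these cells too. Ugcg had 43.5 CPM in Control and 60.7 CPM in MOF cKO (0.48, 0.37 to 0.60), Aloxe3 38.2 and 50.03 CPM (0.39, 0.26 to 0.51, but −0.054 per base of the unequal peaks described above), Abca12 17.2 and 12.8 CPM (−0.42, −0.63 to −0.21) and Acer1 7.04 and 3.68 CPM (−0.94, −1.31 to −0.57). For Acer1 the fibroblast-like difference was in the body, at 6.67 and 3.27 CPM. Acer1 was thus lower in MOF cKO in both classes, and whether the difference differed between them was not tested.

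Beyond the shared regions, 14 member regions had a peak in Control only and 46 in MOF cKO only, or 10.4% and 34.3% of the 134, where 8.92% and 33.2% of all merged regions did. A missing peak has no value, so these have no ratio. The 46 had 0.259 to 6.85 CPM in MOF cKO epithelial-like cells, with a median of 0.916, and 36 of them were higher in suprabasal-like than in other epithelial-like cells, 21 by 2-fold or more, where 52.8% and 15.6% of all regions with a peak in MOF cKO only were. Of the 14 in Control, 5 were higher in suprabasal-like cells and 2 by 2-fold or more, where 31.9% and 8.95% of all regions with a peak in Control only were.

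The strongest of the MOF cKO peaks was in an intron of Smpd3 at 50.3 kb (chr8:106287164-106288129), with 6.85 CPM in epithelial-like and 14.4 CPM in immune-like cells. A Pnpla1 intron peak at 6.43 kb (chr17:28864410-28865277) had 12.9 CPM in suprabasal-like and 3.22 CPM in other epithelial-like cells. An exonic Cyp4f39 peak at 18.2 kb had 12.1 and 1.73 CPM, and an intronic one at 5.86 kb 5.34 and 2.31 CPM. An exonic Abca12 peak at 66.0 kb had 3.30 and 3.14 CPM. The strongest Control peak was in another intron of Smpd3, at 69.1 kb (chr8:106268437-106269333), with 7.97 CPM in epithelial-like, 9.65 CPM in hair follicle-like and 0.755 CPM in fibroblast-like cells. Smpd3 thus held the strongest peak of both lists.

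Counted per cell and thinned to 5000 sites, which left out 16 Control and 30 MOF cKO epithelial-like cells, the shares of suprabasal-like and other epithelial-like cells kept the order of the levels for Elovl4 and Acer1, but not each order of the genotypes. The Elovl4 regions had a site in 23.6% of suprabasal-like Control cells (exact binomial interval 16.1 to 32.7%) and 23.2% of MOF cKO ones, and in 7.30% and 6.89% of other epithelial-like cells. Without thinning the shares were 67.5% and 78.5%, and 39.3% and 41.6%. The Acer1 regions had a site in 5.79% (4.27 to 7.65%) of other epithelial-like Control cells and 2.46% (1.76 to 3.34%) of MOF cKO ones, and without thinning in 30.9% and 17.2%. In suprabasal-like cells the thinned shares were 11.8% (6.45 to 19.4%) and 11.5% (9.18 to 14.1%), and without thinning 57.9% and 46.3%, where the levels were 34.4 and 22.8 CPM. For Alox12b in suprabasal-like cells they were 5.45% and 5.08%, where the levels were 9.14 and 10.4 CPM, and for the Cers3 promoter 10.9% and 13.8%, where they were 33.8 and 29.7 CPM. The intervals of these thinned shares overlapped, so no order of the genotypes is read from them. At the Acer1 promoter the thinned shares of other epithelial-like cells were 4.16% and 0.862%, beside 0.161% and 0.245% of fibroblast-like cells.

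Of 109 related lipid genes in 7 lists, 107 were tested over promoter and body regions in epithelial-like cells, and 3 were 2-fold or more higher and 0 lower, where 3.82% and 1.68% of all genes were, so the count of the higher genes is near the background. Their median was −0.23, beside −0.29 for all genes. The list headed acylceramide and corneocyte lipid envelope had a median of 0.01, with 14 of its 18 genes above the all-gene median and 2 past 2-fold. It also holds other lipoxygenase, Pnpla and Dgat genes, so the median is one of the list and not of that pathway alone. The genes past 2-fold are named next. These were Nipal4, in which mutations cause ichthyosis, at 19.4 and 44.2 CPM (1.19, 1.09 to 1.29), and Lipn, an epidermal lipase, at 4.26 and 9.80 CPM (1.20, 0.99 to 1.43). The third gene was Pparg, a nuclear receptor that acts in lipid metabolism, at 23.6 and 49.0 CPM (1.05, 0.96 to 1.14). The lists of sphingolipid synthesis, sphingolipid breakdown, fatty acid synthesis, cholesterol and lamellar body transport had medians of −0.29, −0.31, −0.23, −0.25 and −0.31 with 0 genes past 2-fold in either direction, and the 9 regulators had −0.25.

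Across the 16 clusters, the members did not share 1 pattern. The correlation of each gene with the mean member profile ran from 0.86 for Abca12 and 0.75 for Cers3 to −0.035 for Smpd3 and −0.62 for Ugcg. The 5 genes of most like pattern among 16896 candidates were Tas2r144 and Sdr16c6 (Pearson r of 0.91 each), Gm10142 and Atp13a4 (0.89 each) and Otop3 (0.88). The clusters share libraries and nearly separate by genotype, so these values are a description.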

How the data were processed

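Single-cell ATAC-seq of 1 Control and 1 MOF cKO library was analysed from the peak lists, barcodes and matrices that the authors deposited. The values are whole-number counts of insertion sites per peak and barcode, made by the authors with Cell Ranger ATAC (version 2.0.0 in the file headers; the processing notes also name Cell Ranger ARC) on mm10, with peaks called per library and no normalization. A fragment gives 2 sites, so fragments were taken as sites divided by 2. Kept cells held 163804253 and 286997950 sites in shared regions.

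Peaks of both libraries that overlapped by 1 bp were merged, and counts were summed per cell class and scaled to the sites of the class in shared regions. Cells with at least 1000 sites were embedded on 50000 regions (latent semantic indexing, 30 components, of which 29 were used) and clustered (Leiden, resolution 1, 20 neighbours) into 16 clusters. Clusters were named from fixed marker lists, and 423 Control and 423 MOF cKO cells stayed unnamed, among them sub-clusters with fibroblast markers and mean doublet scores of 0.846 and 0.656. Cluster 8, with 300 Control and 3 MOF cKO cells, was left unnamed as shallow. It had a median of 2486 sites and 9 of 13 epithelial markers. A melanocyte-like cluster of 31 and 54 cells is not used here. Doublets were scored from simulated pairs and not removed in the values given. The planned comparison of suprabasal-like with basal-like cells used other epithelial-like cells, since no sub-cluster reached 3 basal markers at 1.5-fold, a limit set after the clusters were seen. Ratios have exact conditional binomial intervals, levels exact Poisson intervals and shares exact binomial (Clopper-Pearson) intervals, all for counting error. The scripts were tested on simulated counts. Python 3.11.15, numpy 2.4.6, scipy 1.17.1, scikit-learn 1.9.0 and leidenalg 0.10.2 were used.

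Gene models and sequences were those of the mm10 reference (GRCm38.p6). Promoter regions were placed by every annotated transcript start of these gene models, including starts inside a gene. RefSeq starts were used to place the printed promoter sequences and not the promoter regions. The text names all 10 members, the 8 regions highest and 8 lowest with at least 200 sites, single-library peaks with at least 500 sites, related genes past 2-fold with at least 500 sites and the 5 genes of most like pattern. The Alox12b intron is named as the only body region of its gene. The members and lists were chosen with earlier results of these data known, and the split of AP-1 matches by genotype ratio was added after the values were seen. Other totals, size factors, thinning, cell filters, clusterings and overlaps were tried.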

Additional observations from a re-analysis of the deposited data

Results flagged for a closer look

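The Cyp4f39 intron region 9.59 kb from the start was higher in MOF cKO than in Control in epithelial-like cells (log2 2.09, from 0.660 to 2.81 CPM) and lower in fibroblast-like cells (log2 −1.32, from 0.403 to 0.161 CPM). The opposite directions in the 2 classes are why it is listed, and the difference between them was not tested. The fibroblast-like interval, −3.28 to 0.47, included 0.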

How the results depend on the processing

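The member promoter sum, −0.22 as reported, was −0.37 when scaled to all peaks of each library, −0.058 with median-of-ratios size factors and −0.27 when cells with a site were counted. The member median over promoter and body regions, 0.16 as reported, was 0.0069, 0.31 and 0.041 under the same settings, and 0.30 for body regions alone. The median of all genes moved with it, from −0.29 to −0.44 and −0.13 under the first pair. That scaling moved the share of all regions 2-fold higher and lower from 17.4% and 13.9% to 15.3% and 17.8%, and to 20.04% and 10.6%. Per base of the peaks of each library, the member promoter sum was −0.31 and the member median 0.063, where the median of all genes was −0.29, and Aloxe3 turned from 0.34 to −0.10. This setting, and the size factors for single genes in epithelial-like over fibroblast-like cells, were chosen after seeing the data. The fibroblast-like sum, −0.0029, was −0.054 with all peaks and −0.28 with sites per cell. For all member regions summed, the epithelial-like excess over fibroblast-like cells in Control, 0.49, was 0.11 with size factors. The suprabasal-like excess of the same sum in Control, 0.35, was 0.45 after thinning and 0.17 when all regions entered the clustering. The count of lower regions, 13, was 5 of 65 after thinning, where the share of all regions moved from 13.9% to 10.1%, and the cause was not tested. The count of higher regions was 13 to 15 over the alternatives, but after thinning it was 14 of 65, where the share of all regions moved from 17.4% to 24.9%. None of these sums and medians changed sign, and a count has none. Against the share of all regions, both counts were above it as reported and below it after thinning. In up to 12 alternatives other than the one per base, all 16 named regions kept their sign and 12 stayed past 2-fold, and 16 of 20 gene values kept their sign. The Abca12 promoters, −0.94, became 0.0077 when 50% of each peak had to overlap. This left only the region 79337 bp inside the gene and no value at the main start. No paired analysis was possible because each genotype has 1 library.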
